A study of Mus musculus with 6 samples.

Results

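Ceramidases and ceramide synthesis genes were followed as 10 mouse genes, Acer2, Acer3, Asah1, Asah2, Cers2, Cers4, Cers5, Cers6, Sgms1 and Sgpl1. Every probe set whose only gene symbol was one of these was taken, which gave 10 of 18193 genes and 23 of the 45037 probe sets tested, a probe set being the group of short oligonucleotides that measures one transcript on the array. The genes were grouped around Acer2, which was picked because one of its probe sets moved strongly, and in opposite directions, in different clones. The cells were mouse embryonic stem (ES) cells of 3 clones, A1, B3 and C6, separate recombinant clones of the line EBRTcH3 grown with serum and leukemia inhibitory factor. All 3 carried the human GTF2I coding sequence with a 3xFLAG tag at the Rosa26 locus, behind a promoter that tetracycline keeps off. GTF2I encodes the transcription factor TFII-I. Total RNA of each clone was put on 1 array with tetracycline in the medium (uninduced, 0 h) and on 1 array after 24 h without it (induced), giving 3 arrays per group. The titles give the transgene as GTF2I and were followed here, although one characteristics entry reads GTF2IRD2. Since induction was the removal of tetracycline, an effect of the transgene and an effect of the removal cannot be told apart. All values below are RMA values, which are background-corrected, normalized intensities on the log2 scale, and a difference is the induced minus the uninduced value on that scale.

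The ES cell markers were high on every array. All 10 ES cell markers, among them Pou5f1, Nanog, Sox2 and Zfp42, had means over the arrays of at least 6, and their average lay between 11.97 and 12.23 on every array. Of 10 fibroblast or feeder cell markers only Thy1 reached 6, and the average of that list lay between 4.28 and 4.38. A mean of 6 was also reached by 0 of 6 markers of primitive endoderm, 2 of 5 of mesoderm, 2 of 5 of neural ectoderm and 3 of 6 of trophectoderm. Among the last, Krt8 read 7.85 (uninduced) and 7.84 (induced) in A1 against 5.89 to 6.38 in B3 and C6. Krt18 read 7.32 and 7.25 in A1 against 6.43 to 6.55 in the other clones. Tfap2c did not share this order, with 8.18 and 7.60 in A1, 7.86 and 8.53 in B3, and 8.51 and 9.01 in C6. The part of such differences between clones in the results was not tested. Across the array the clones did not move alike: 41.4% of all probe sets, and 60.3% of those whose mean was 6 or more, moved in A1 against both B3 and C6. Values are therefore given for each clone. The labels of the 2 arrays of A1 were taken as given and were not tested, and an exchange of these arrays would turn the sign of every A1 difference below. A clone had 1 array per state, so a change within a clone has no replicate. Between induced and uninduced arrays, p-values measure the spread between clones unless the clone is in the fit. With terms for both clone and induction, the error is how unlike the clones' differences with induction are. In RNA of whole cultures, fewer cells that express a gene and less of its RNA per cell cannot be told apart.

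Ceramide is the hub of sphingolipid metabolism. Ceramide synthases join a fatty acid to a sphingoid base to make it, sphingomyelin synthases turn it into sphingomyelin, and ceramidases cut it into sphingosine and a free fatty acid. Sphingosine is then phosphorylated to sphingosine 1-phosphate, a signalling lipid, which the lyase Sgpl1 breaks down for good. Ceramide is known for its part in growth arrest and cell death, and sphingosine 1-phosphate for its part in survival and migration.

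None of the 10 genes differed detectably between induced and uninduced arrays over the 3 clones. In limma, with p-values adjusted by Benjamini-Hochberg across the whole array, 0 of their 23 probe sets reached the threshold of 0.05 (smallest adjusted p = 1.00), beside 0% of all probe sets. At an unadjusted p under 0.05 there were 2 of 23, both with lower values in induced arrays, beside 0.968% of all probe sets. The methods' t-test also gave 2 of 23 at that level, beside 1.93% of all, and 0 after adjustment. The differences of the 23 probe sets ran from -0.84 to 0.19 with a median of -0.04, where the median of all probe sets was 0.00. Groups that did not overlap were found in 3 of the 23, beside 4.55% of all probe sets. In 1 every induced array lay above every uninduced array (2.29% of all), and in 2 below (2.26% of all).

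**Figure D1:**
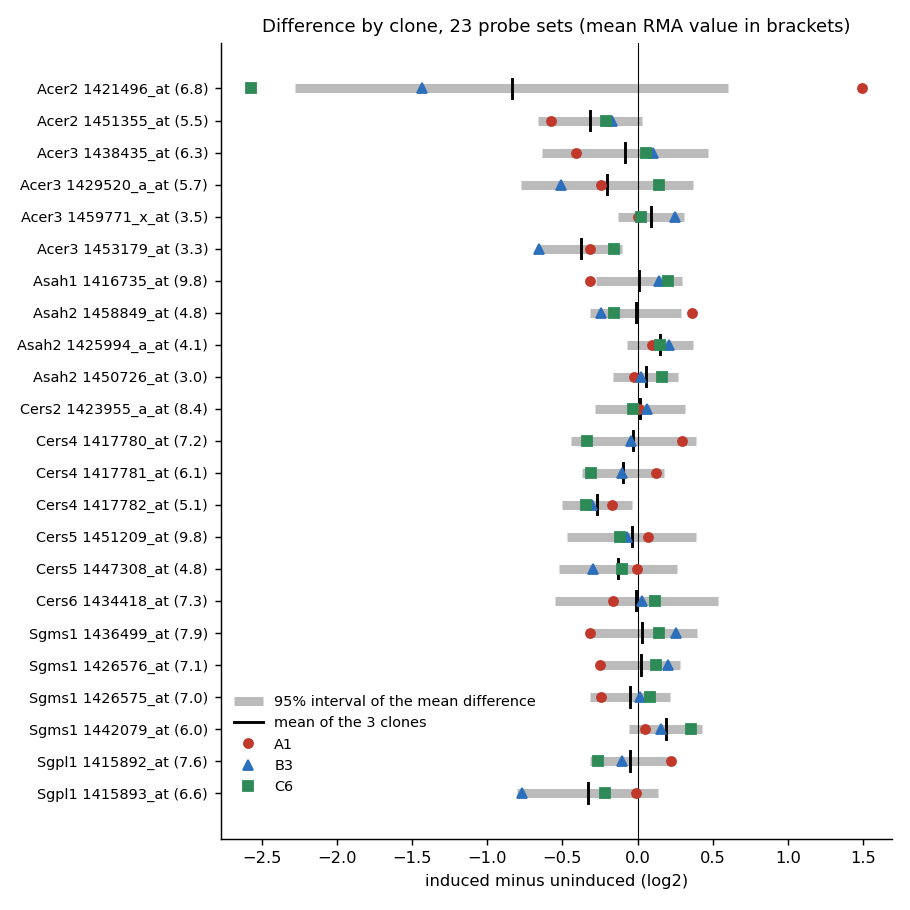
Induced minus uninduced difference (log2, horizontal axis) of the 23 probe sets (vertical axis, with the mean RMA value in brackets), with 1 point per clone, a black bar at the mean of the 3 clones and a grey band for its 95% interval from limma. Acer2 1421496_at spreads from -2.57 in C6 to 1.49 in A1, while no other probe set differs by more than 0.77 in any clone.

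The alkaline ceramidase gene Acer2, whose enzyme cuts ceramide in the Golgi, was measured by 2 probe sets that did not move together. The brighter one, 1421496_at, stood at 5.95 (A1), 7.52 (B3) and 8.13 (C6) before induction. After 24 h without tetracycline it stood at 7.44 (A1), 6.08 (B3) and 5.56 (C6). Before induction A1 thus lay near the level that B3 and C6 had after it, and after induction near the level from which they had come. The differences were 1.49 (A1), -1.44 (B3) and -2.57 (C6), or 2.81-fold higher in the induced array of A1 and 2.70-fold and 5.94-fold higher in the uninduced arrays of B3 and C6. These values chose the gene and are given without a test. Over all probe sets, 8 of 45037, this one included, moved in A1 against both other clones with every difference at least as large as its smallest.

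Averaged over the clones, 1421496_at had a mean of 7.20 ± 1.12 (SD, n = 3) before and 6.36 ± 0.97 (SD, n = 3) after induction. The difference of -0.84 had a 95% interval from -2.28 to 0.60 and did not pass (limma, adjusted p = 1.00). Without both arrays of A1 the mean difference was -2.00, and without both arrays of C6 it was 0.03. The clones had almost the same mean over their 2 arrays, 6.70 (A1), 6.80 (B3) and 6.84 (C6).

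The other Acer2 probe set, 1451355_at, was lower in the induced array of all 3 clones. It read 5.79, 5.46 and 5.83 in the uninduced arrays of A1, B3 and C6 and 5.21, 5.30 and 5.62 in the induced ones. The groups overlapped, since the induced array of C6 lay above the uninduced array of B3. Its difference of -0.32 ± 0.15 (SE, n = 3 per group) did not pass (limma, adjusted p = 1.00), and A1, with -0.58, had the largest fall of the clones in this probe set. The platform annotation listed an accession for 1451355_at and none for 1421496_at, so which Acer2 transcript the latter reads was not analysed here.

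**Figure D2:**
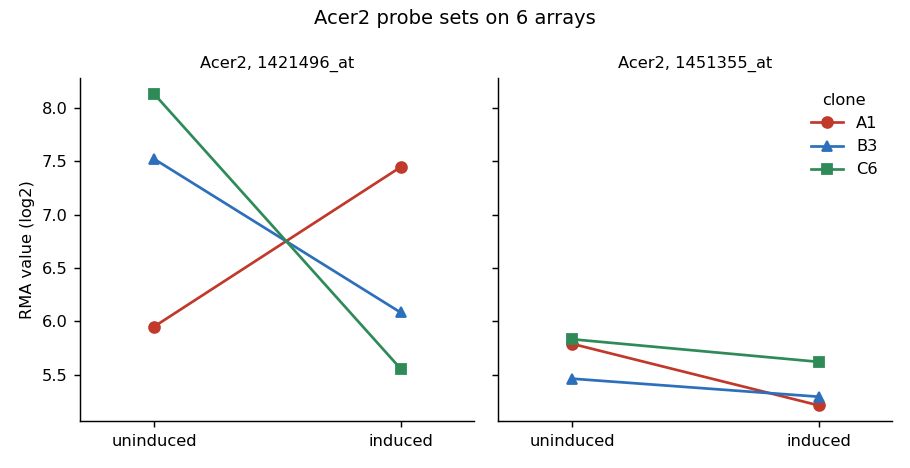
RMA values (log2, vertical axis) of the 2 Acer2 probe sets in uninduced and induced arrays (horizontal axis), with 1 point per array and the points of each clone joined by a line. In 1421496_at the line of A1 rises from 5.95 to 7.44 while those of B3 and C6 fall, and in 1451355_at all 3 lines fall by 0.17 to 0.58.

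The genes whose pattern over the 6 arrays was most like that of 1421496_at were Scaf1, Pym1, Polr2a, Zfp57 and Maz. Likeness was the root mean square difference between values centred on their own means, over 9552 genes with a mean of at least 6. It was 0.20 for Scaf1, 0.23 for Pym1, 0.27 for Polr2a, 0.29 for Zfp57 and 0.31 for Maz, where the median gene stood at 0.97 and the other Acer2 probe set at 0.98. Scaf1, whose protein binds the tail of RNA polymerase II, differed by 1.42 (A1), -1.00 (B3) and -2.36 (C6). Pym1, an exon junction complex factor, differed by 1.27, -1.45 and -2.25 in the same order. Maz, a zinc finger transcription factor, differed by 1.23, -0.99 and -1.92. None of the 5 is a gene of sphingolipid metabolism. None passed between induced and uninduced arrays (limma, adjusted p = 1.00 for each), beside 0% of all probe sets. Nothing is read from this, since the pattern they were picked for did not pass either.

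**Figure D3:**
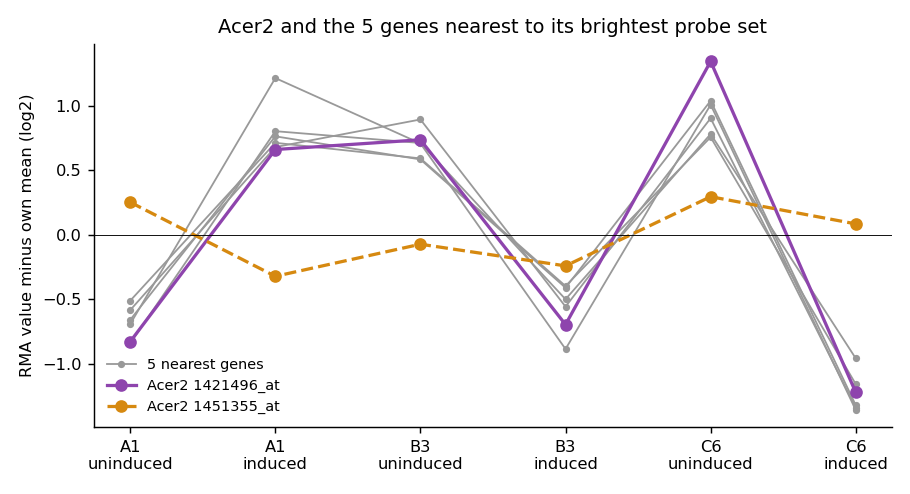
RMA value minus the probe set's own mean (log2, vertical axis) on each of the 6 arrays (horizontal axis) for both Acer2 probe sets and for the 5 genes nearest to 1421496_at, each a grey line. The grey lines follow 1421496_at up and down on every array, and 1451355_at stays close to its mean.

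Promoter sequence is shown for Acer2 and Sgpl1, the genes with the largest difference in any single clone. The stretches come from RefSeq on build GRCm38.p6 and hold only bases upstream of the annotated gene, 184 for Acer2 (chr4:86874164-86874347, plus strand) and 250 for Sgpl1 (chr10:61147685-61147934, minus strand). Each is written 5′ to 3′ on the strand of the gene, with matches to the GC box GGGCGG, the site of Sp family factors, on either strand in capitals.
Acer2: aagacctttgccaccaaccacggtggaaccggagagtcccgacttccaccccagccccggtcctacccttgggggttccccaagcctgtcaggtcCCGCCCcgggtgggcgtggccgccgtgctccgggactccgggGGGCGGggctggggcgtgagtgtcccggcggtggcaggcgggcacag
Sgpl1: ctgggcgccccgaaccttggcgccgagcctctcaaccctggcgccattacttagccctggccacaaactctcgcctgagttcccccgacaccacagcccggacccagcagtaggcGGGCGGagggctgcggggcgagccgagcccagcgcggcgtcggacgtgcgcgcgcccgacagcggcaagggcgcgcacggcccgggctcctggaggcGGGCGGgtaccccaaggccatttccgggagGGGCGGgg

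Both stretches were rich in CpG, with 16 sites in Acer2 and 31 in Sgpl1, and held 2 and 3 GC boxes. Windows from 250 bases before to 50 after an annotated start were found for 9 of the 10 genes, 14 windows in all, and not for Asah1. GGGCGG was in 8 of the 14, against 35.7% of 32851 windows of all genes. The E-box CACGTG, a motif to which TFII-I is known to bind, was in 2 of the 14, against 7.15% of all windows. Those were 1 window each of Cers2 and Cers6. The TATA box TATAAA was in 1 window, of Sgms1, against 13.6% of all. All were counted on both strands, none of the 3 motifs contains another, and a match is a description of the letters only.

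Acer3, the second alkaline ceramidase gene, was measured by 4 probe sets. Its brightest, 1438435_at, read 6.69, 5.82 and 6.46 in the uninduced arrays of A1, B3 and C6 and 6.27, 5.93 and 6.51 in the induced ones. It was lower in A1 after induction and slightly higher in B3 and C6, and B3 lay below the other clones on both of its arrays. The mean difference was -0.09 ± 0.24 (SE, n = 3 per group). The probe set 1429520_a_at showed the same low B3, with 5.56 and 5.05 against 5.79 to 6.11 in the other clones. The dimmest, 1453179_at, was one of the 2 past an unadjusted p of 0.05. It read 3.49, 3.64 and 3.31 in uninduced and 3.17, 2.99 and 3.16 in induced arrays of A1, B3 and C6. The groups did not overlap, and the difference was -0.38 ± 0.12 (SE, n = 3 per group; limma, adjusted p = 1.00). Its mean of 3.30 was under even the lowest of the arrays' lower quartiles (3.66 to 3.73), and the other dim probe set, 1459771_x_at, differed by 0.09.

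The acid ceramidase gene Asah1, whose enzyme works in lysosomes, had 1 probe set. It read 9.95, 9.75 and 9.60 in the uninduced arrays of A1, B3 and C6 and 9.63, 9.89 and 9.80 in the induced ones. A1 fell by 0.32 where B3 and C6 differed by 0.14 and 0.20, the opposite order to that of Acer2 1421496_at and of a much smaller size. The mean difference was 0.01 (95% interval -0.28 to 0.30). The neutral ceramidase gene Asah2, best known from the gut, stayed dim, with means of 3.03, 4.08 and 4.81 in its 3 probe sets. In 1425994_a_at all 3 induced arrays (4.14, 4.11 and 4.21) lay above all 3 uninduced ones (4.04, 3.90 and 4.06), a difference of 0.15 ± 0.10 (SE, n = 3 per group; limma, adjusted p = 1.00). The brightest of the 3, 1458849_at, differed by 0.36 (A1), -0.24 (B3) and -0.16 (C6).

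**Figure D4:**
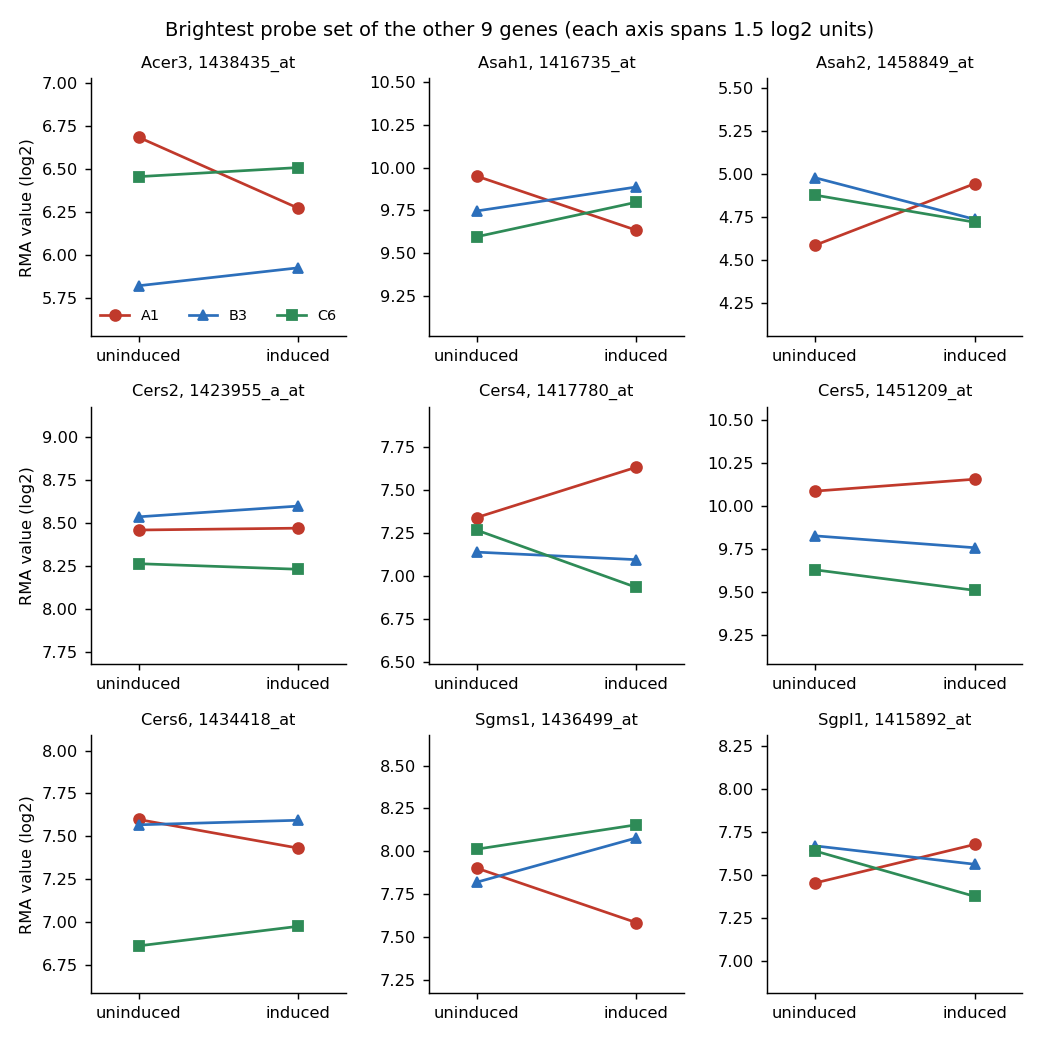
RMA values (log2, vertical axes, each 1.5 units tall) of the brightest probe set of the other 9 genes in uninduced and induced arrays (horizontal axes), with 1 point per array and a line per clone. The line of A1 falls across another line for Acer3, Asah1, Cers6 and Sgms1, and rises across another for Asah2 and Sgpl1. For Cers6 the line of C6 lies 0.66 below that of B3 in the mean of both arrays.

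The ceramide synthases differ in the fatty acid they add, and Cers5 and Cers6 varied more between clones than with induction. Cers6, which adds palmitic acid, read 7.60 and 7.43 in A1 (uninduced, then induced), 7.57 and 7.59 in B3, and 6.86 and 6.98 in C6. Both arrays of C6 lay below the other 4. The mean difference with induction was -0.01 (95% interval -0.55 to 0.53). Cers5, which also makes palmitoyl ceramide, was ordered A1, B3, C6 from high to low in both of its probe sets, with no overlap between clones. The brighter one, 1451209_at, read 10.09 and 10.15 in A1, 9.82 and 9.76 in B3, and 9.63 and 9.51 in C6. Its difference with induction was -0.04 (95% interval -0.47 to 0.39). Cers2, which makes ceramides with very long acyl chains, moved least of the synthases when judged by the largest difference of any clone. It read 8.46, 8.54 and 8.26 in the uninduced arrays of A1, B3 and C6, and 8.47, 8.60 and 8.23 in the induced ones. The difference was at most 0.06 in any clone.

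Levels between clones were compared over the 2 arrays of each clone with limma, a comparison chosen after these values were seen. None of the 23 probe sets passed, beside 1.13% of all probe sets, and 5 had an unadjusted p under 0.05, beside 13.7% of all probe sets, those of Cers6, both of Cers5 and 2 of Acer3. Cers6 came nearest (limma, adjusted p = 0.0972). It passed without a term for induction (limma, adjusted p = 0.0393), a setting that raised the calls over all probe sets from 509 to 1026. Leaving out an array leaves a clone with 1 array, so members called in such fits are not named and nothing is read from their count. With all arrays, the smaller adjusted p of the 2 Cers5 probe sets was 0.161, and Acer3 1438435_at stood at 0.189. For Acer2 1421496_at, a fit without 1 array of A1 repeats the contrast that chose the probe set, so no call is read from it.

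Cers4, another synthase of long-chain ceramides, had 3 probe sets. In 1417782_at, the other of the 2 past an unadjusted p of 0.05, the uninduced arrays of A1, B3 and C6 read 5.21, 5.12 and 5.24 and the induced ones 5.03, 4.81 and 4.90. It was lower in all 3 clones without overlap, by -0.27 ± 0.10 (SE, n = 3 per group; limma, adjusted p = 1.00). The 2 brighter probe sets had a higher value after induction in A1 alone. The brightest, 1417780_at, differed by 0.29 (A1), -0.04 (B3) and -0.33 (C6), a mean of -0.03. All 3 probe sets share a listed accession.

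Sgms1, which makes sphingomyelin from ceramide in the Golgi, had 4 probe sets, and the 3 brightest were lower after induction in A1 alone. The brightest, 1436499_at, read 7.90, 7.82 and 8.01 in the uninduced arrays of A1, B3 and C6 and 7.59, 8.08 and 8.16 in the induced ones. The differences were -0.32 (A1), 0.26 (B3) and 0.14 (C6), with a mean of 0.03 (95% interval -0.34 to 0.40). The next, 1426576_at, differed by -0.25, 0.20 and 0.12 in the same order. The dimmest, 1442079_at, was higher in all 3 clones, by 0.05, 0.15 and 0.36, and its mean difference of 0.19 ± 0.10 (SE, n = 3 per group) did not pass (limma, adjusted p = 1.00).

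Sgpl1, the lyase whose promoter is printed above, had 2 probe sets that differed in their clone pattern. The brighter, 1415892_at, read 7.45, 7.67 and 7.64 in the uninduced arrays of A1, B3 and C6 and 7.68, 7.56 and 7.38 in the induced ones, so that A1 alone was higher. The other, 1415893_at, read 6.84, 6.74 and 6.62 in uninduced and 6.83, 5.97 and 6.40 in induced arrays. The induced array of B3 stood lowest, with a difference of -0.77 against -0.01 in A1 and -0.22 in C6. The mean difference of -0.33 ± 0.20 (SE, n = 3 per group) did not pass (limma, adjusted p = 1.00). Both probe sets share a listed accession.

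Counted together, 13 of the 23 probe sets moved in A1 against both other clones, beside 41.4% of all probe sets. In 6 of them A1 was the higher one (19.9% of all) and in 7 the lower one (21.5% of all). Where the mean was 6 or more it was 11 of 13, beside 60.3%. Acer2 1421496_at was the only one of the 23 in which every clone moved by at least 0.5, beside 0.755% of all probe sets and 1.62% of those with a mean of at least 6. Acer2 was chosen on this contrast, so nothing is read from these counts. Another 7 probe sets moved the same way in all 3 clones, beside 18.8% of all. Of these, 5 were lower (Acer2 1451355_at, Acer3 1453179_at, Cers4 1417782_at, Cers5 1447308_at and Sgpl1 1415893_at) and 2 higher (Asah2 1425994_a_at and Sgms1 1442079_at).

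Other genes of sphingolipid metabolism did not pass either. Of 56 listed genes 51 were measured, and 0 passed in limma or had an unadjusted p under 0.05, taking the brightest probe set of each. Over all 18193 genes taken in that way, 0 passed and 96 had such an unadjusted p. Values of the 51 were higher for 21 and lower for 30 in induced arrays, with a median of -0.02, where the median of all genes was -0.00. In 24 of the 51 A1 moved against both other clones, beside 45.5% of all genes. In 0 of them did every clone move by at least 0.5, beside 129 of all 18193 genes.

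Among 10 genes of the first steps of ceramide synthesis the median difference was -0.00. Degs1, the desaturase that makes the last step to ceramide, read 10.40, 10.08 and 10.08 in the uninduced arrays of A1, B3 and C6 and 9.99, 10.61 and 10.61 in the induced ones. Only A1 was lower after induction, and the mean difference was 0.21 ± 0.19 (SE, n = 3 per group). Its other probe set differed by 0.04, -0.01 and 0.19. Sptssa, a small subunit of serine palmitoyltransferase, differed by -0.13 (A1), 0.30 (B3) and 0.21 (C6). For 10 genes of sphingomyelin and ceramide transport the median was 0.10, with 7 higher. Cert1, the protein that carries ceramide to the Golgi, differed by -0.06, 0.05 and 0.61 in A1, B3 and C6, with its 3 other probe sets between -0.08 and 0.04 in the mean. Smpdl3b, a phosphodiesterase of the sphingomyelinase family, differed by -0.07, 0.30 and 0.34. Smpd3, a neutral sphingomyelinase, had a mean difference of -0.20 and a mean value of 4.97, and its 2 dimmer probe sets differed by 0.06 and -0.13.

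The 15 measured glycosphingolipid genes had a median of -0.11, with 4 higher and 11 lower. Ugcg, which adds the first glucose to ceramide, read 7.43, 7.77 and 7.66 in the uninduced arrays of A1, B3 and C6 and 7.53, 6.93 and 7.47 in the induced ones. As for Sgpl1 1415893_at, the induced array of B3 stood lowest. In B3 the 3 other Ugcg probe sets gave -0.85, -0.31 and, in a dim one with a mean of 2.93, 0.16. Gltp, a glycolipid transfer protein, differed by 0.42 (A1), -0.40 (B3) and -0.82 (C6). For the 16 genes of sphingosine 1-phosphate and the remaining ceramidase Acer1 the median was -0.02. Sphk2, a sphingosine kinase, differed by 0.33, -0.15 and -0.46 in A1, B3 and C6, while its other probe set was dim and higher in all 3. Spns2, an exporter of sphingosine 1-phosphate, was lower in all 3 clones by a mean of -0.16, and Aldh3a2, which oxidizes the product of the lyase, differed by -0.26, 0.05 and -0.04.

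In B3 and C6 alone, with the clone as a replicate block, 2 of the 51 genes, each taken by its brightest probe set, passed. The share over all probe sets, bright or dim, was 2.18%, and the share over the brightest probe set of every gene is not given. The 2 were Degs1, higher by 0.52 (limma, adjusted p = 0.0426), and Gltp, which fell by 0.61 (limma, adjusted p = 0.0458). In A1, which this fit leaves out, both of these probe sets ran the other way. The contrast of A1 with the other clones was known before this fit, in which each remaining clone has 1 array per state. No result about the 2 genes is therefore read from these calls. The other Degs1 probe set, with a mean of 10.16, differed by only -0.01 in B3 and 0.19 in C6.

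**Figure D5:**
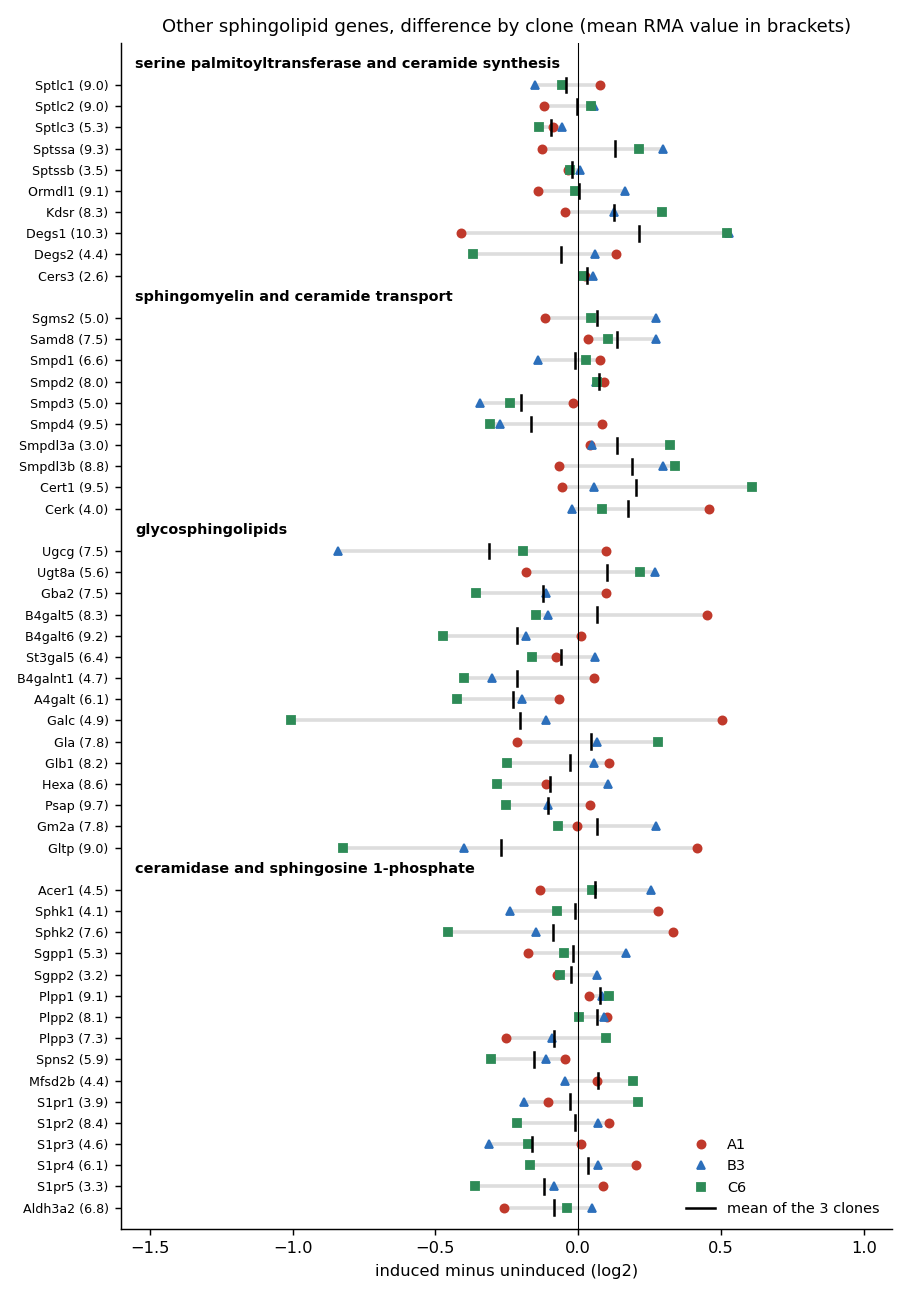
Induced minus uninduced difference (log2, horizontal axis) of the 51 other sphingolipid genes (vertical axis, with the mean RMA value in brackets), with 1 point per clone, a black bar at the mean of the 3 clones and a grey line over their range. A1 lies apart from B3 and C6 for Degs1 and Gltp, and no black bar lies beyond -0.31 or 0.21.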

How the data were processed

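The authors hybridized total RNA to Affymetrix GeneChip mouse genome arrays and deposited log2 values made by robust multiarray averaging (RMA, affy package, version not given in the sources used here). No further scaling was applied to the deposited log2 values. Of 45101 probe sets, 64 controls were left out. Symbols came from the platform annotation, updated through gene numbers in RefSeq (34741 of 34945 probe sets with 1 symbol matched). A gene with several probe sets was represented by the one with the highest mean.

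Induced and uninduced arrays were compared by a two-sided test in limma (version 3.58.1, R version 4.3.3; lmFit, then eBayes), p-values being adjusted by Benjamini-Hochberg over 45037 probe sets and a threshold of 0.05, in place of the per-gene t-test of the methods, which was run as an alternative. The levels of the 3 clones were compared by limma's F test with a term for induction. The scripts were tested on simulated data. The same clone stood in both groups, which pairs the arrays: deviations from the group means correlated at r = 0.19, 0.53 and 0.31 for A1, B3 and C6 across probe sets. The labels call the arrays biological replicates, but 1 array per clone and state was made, so the number of arrays limits the precision. The members and gene lists were chosen with earlier results of these data known. Named were all members, in each pathway list the gene with the smallest p and, where the mean reached 6, the 2 genes with the largest difference of any clone, and the genes nearest to Acer2. Alternatives covered the replicate block, arrays and clones left out, the methods' test, array weights, the variance model, quantile normalization, a filter on dim probe sets (mean of at least 6), 1 probe set per gene and the threshold. A member's difference was counted as reversed only where its sign changed and either value had an unadjusted p under 0.05.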

Additional observations from a re-analysis of the deposited data

Results flagged for a closer look

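Acer2 1421496_at stood out because A1 moved one way and B3 and C6 the other, each by at least 0.5 on the log2 scale. Its difference in A1 exceeded the mean of the other clones by 3.49. This difference between clones was not tested, since it chose the gene. The second Acer2 probe set did not share it, with a difference in A1 that was lower than the mean of the others by -0.39.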

How the results depend on the processing

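Each clone gave 1 array per state, so a difference within a clone has no error of its own. Between induced and uninduced arrays, limma with the clone as a replicate block called 0 member probe sets, 0 pathway genes and 0 of all probe sets, and changed no call. Leaving out arrays or clones gave 0 to 981 calls over all probe sets, 0 to 1 among members and 0 to 2 among pathway genes. All calls above 0 came without both arrays of A1 and with the replicate block. The member called there was Acer2 1421496_at, which was chosen for this movement. Of 414 member differences under an alternative, 345 kept their direction and 69 did not, and none of the 69 had an unadjusted p under 0.05 on either side. The replicate block, the methods' test, the variance model, the filter on dim probe sets and 1 probe set per gene leave a difference unchanged. A difference without a clone is counted both with and without the block. The 345 therefore include differences that could not have changed direction. Probe sets moving in A1 against both others were 13 of 23, and 14 of 23 under quantile normalization. On smaller sets the share was higher, with 11 of 13 among means of at least 6 and 9 of 10 with 1 probe set per gene. Beside these stood 60.3% of all probe sets with such a mean and 45.5% of all genes. Acer2 was chosen on this contrast, so nothing is read from these shares. The comparison of levels between clones was less stable. It called 509 of all probe sets, 1026 without a term for induction and 108 of those with a mean of at least 6. Leaving out an array of A1 gave 3838 (uninduced) or 3364 (induced), of B3 11 or 13, and of C6 117 or 108. The 0 member calls became 1 without a term for induction. They ranged from 0 to 3 with an array left out, and the 3 came only without an array of A1. Each such fit leaves a clone with 1 array. Without an array of A1 it also repeats the contrast that chose Acer2 1421496_at. The probe sets called with an array left out are therefore not named, and nothing is read from these counts. The cause of the shifts between settings was not tested.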
